A study of Mus musculus with 6 samples.

Results

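The dystrophin-glycoprotein complex was followed through 8 of its genes, Dmd, Utrn, Dag1, Sgca, Sgcb, Sgcd, Sspn and Dtna, chosen by symbol from the 24028 genes of a count table. All 8 had a row. The table came from C2C12 cells, an immortalised line of mouse myoblasts, of which 1 clone carrying a doxycycline-inducible transgene labelled MMH6 was used. The transgene is codon-altered and encodes a chimera, MMH, of mouse Dux up to and including its homeodomains and of human DUX4 from the end of its homeodomains onward. Dux and DUX4 are transcription factors of the early embryo, and DUX4 that is active in muscle is linked to facioscapulohumeral muscular dystrophy. Cultures of this clone, all under puromycin selection, either received 2 µg/ml doxycycline (induced, 3 libraries) or did not (uninduced, 3 libraries). The duration was given as 18 h in the series description and 36 h in the sample protocol, so it is uncertain. Cells with doxycycline and no transgene were not analysed here, and drug and transgene therefore cannot be told apart. The p-values measure the spread between cultures of 1 clone.

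The complex spans the membrane of the muscle fibre, the sarcolemma, and ties the actin cytoskeleton to the basement membrane. Inside the cell, dystrophin or its autosomal relative utrophin binds actin and the tail of β-dystroglycan. Outside, sugars on α-dystroglycan bind laminin, while the sarcoglycans and sarcospan form a subcomplex beside dystroglycan in the membrane. Loss of dystrophin, of a sarcoglycan or of dystroglycan's sugars causes muscular dystrophies, and utrophin is the form that prevails before fibres mature.

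Each library held 21.5 to 24.5 M counts of polyadenylated RNA. Levels are given as CPM, counts per M of an effective library size, which is the library's total multiplied by its trimmed-mean (TMM) factor. These factors averaged 1.397 in uninduced and 0.716 in induced libraries, so CPM values do not add up to a common total. Differences are log2 fold changes of induced over uninduced libraries with their standard errors (SE), from edgeR's quasi-likelihood test across 12969 genes with Benjamini-Hochberg adjustment at 0.05. The sum of the 8 genes took 0.0727 to 0.0790% of the counts of an uninduced library and 0.0282 to 0.0287% of those of an induced library. In CPM the same sum ran from 522 to 567 in uninduced and from 396 to 400 in induced libraries. Because RNA was taken from whole cultures, fewer cells of a type and less RNA per cell cannot be told apart.

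Of the 8 genes, 7 passed the filter on low counts, and all 7 fell in induced cells. Dmd was removed by that filter, and its values without it are given below with its counts. Falls were common in these cells: 41.2% of all tested genes were called lower and 41.3% higher. In all 7 tested genes the 3 induced libraries lay below the 3 uninduced ones, which was so for 41.7% of tested genes. Sspn, Sgca and Dtna fell at least 2-fold, as did 12.7% of tested genes. The median log2 fold change was -0.82 over the 7 genes and -0.01 over all tested genes. Dag1, the dystroglycan gene, changed least, with a log2 fold change of -0.19, and Sspn, the sarcospan gene, changed most, with -1.77.

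**Figure D1:**
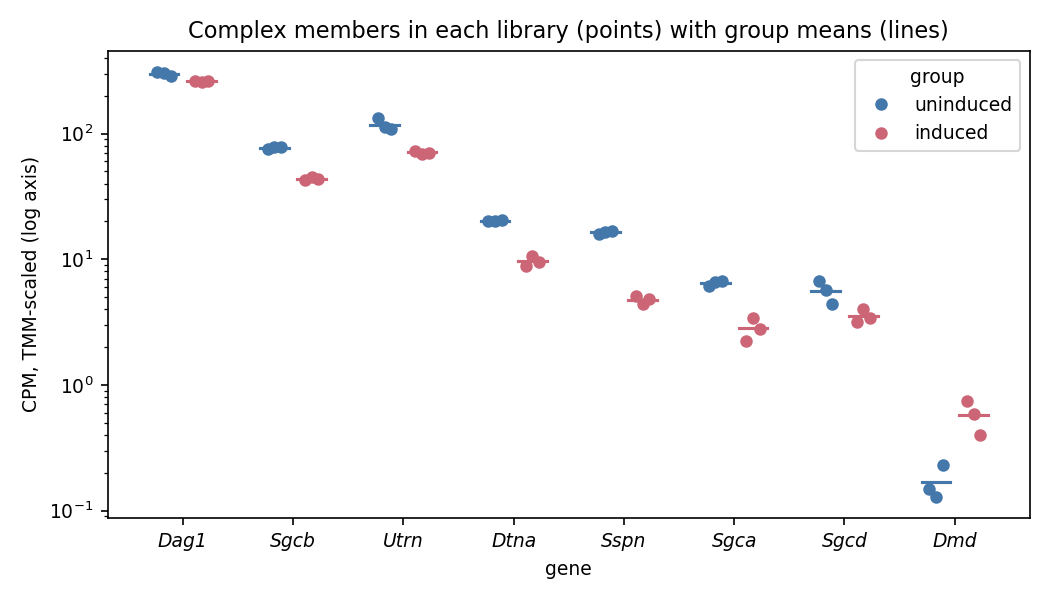
CPM (TMM-scaled, log axis) of the 8 genes in each of the 3 uninduced (blue) and 3 induced (red) libraries, with group means as lines. The induced points lie below the uninduced ones for every gene except Dmd, whose 6 points rest on 4 to 13 counts each.

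The 150 bases before an annotated transcription start are shown for Sspn and Sgca, which fell most, and for Dag1, which fell least. They are from RefSeq on GRCm38.p6, read in the direction of the gene, with GGGCGG or its reverse complement CCGCCC, a GC box, in capitals. The Sspn window is chr6:145933972-145934121 on the plus strand. The Sgca window is chr11:94976328-94976477 and the Dag1 window is chr9:108263959-108264108, both on the minus strand.
Sspn: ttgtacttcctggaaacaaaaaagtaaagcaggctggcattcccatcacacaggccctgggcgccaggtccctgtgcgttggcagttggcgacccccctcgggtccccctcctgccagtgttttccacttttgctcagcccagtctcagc
Sgca: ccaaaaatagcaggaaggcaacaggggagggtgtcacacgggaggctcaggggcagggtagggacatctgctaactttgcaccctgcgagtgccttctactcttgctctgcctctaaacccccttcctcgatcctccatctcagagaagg
Dag1: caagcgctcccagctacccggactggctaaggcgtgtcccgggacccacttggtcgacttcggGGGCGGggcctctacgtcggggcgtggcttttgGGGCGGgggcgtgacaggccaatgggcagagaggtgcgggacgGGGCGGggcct
Dag1 had 3 GC boxes in its window and a GC content of 72.0%. Sgca had 0 boxes and 56.7% GC, and Sspn had 0 boxes and 58.7% GC. Sspn and Dag1 each had a further annotated start, and both of these windows held 0 boxes. The windows of Sgcb and Sgcd held 1 box each, and that of Utrn held 0. Dmd had a window with 0 boxes and another with 3. Whether boxes and falls are related was not tested. In all, 10 RefSeq windows were used, for 7 of the genes. Dtna, which fell 2.10-fold, was left out of the window set here, so the counts over the 10 windows do not cover it. Of the 10, 4 held a GC box, against 28.6% of 32851 windows of the same length genome-wide. The median GC content of the genome-wide windows was 54.0%. The GC box was chosen after the sequences were seen. Letters of the core of Dux-type double homeodomain sites, GATTNAATC, were searched on both strands over 300 bases, 250 before and 50 after the start. They occurred in 0 of the 10 windows and in 0.268% of all 32851. The MyoD E-box CAGCTG, searched in the same way, also occurred in 0 of the 10 and in 16.3% of all windows. These counts describe letters in the windows and say nothing of binding.

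Dmd encodes dystrophin, the actin-binding rod that gives the complex its name, and lies at chrX:82814664-85205050 (GRCm38.p6). Its counts were 5, 4 and 7 in the uninduced and 13, 9 and 7 in the induced libraries. The raw counts of the groups touched at 7, and in CPM the induced libraries (0.402 to 0.741) lay above the uninduced ones (0.129 to 0.229). The summed counts of 16 and 29 gave a ratio of 3.41 with an exact 95% binomial interval of 1.79 to 6.72, which covers counting error only. Scaled by library size alone, the ratio was 1.75, with an interval of 0.918 to 3.44. Dmd therefore stood out from the other 7 genes by its very low level, and the size of its difference depended on the scaling. Without a filter on low counts edgeR called Dmd higher, as it did 33.2% of the 18589 genes then tested, with a log2 fold change of 1.67 ± 0.53 (SE; adjusted p = 0.0029). Without the filter and without TMM factors it gave 0.79 ± 0.53 (SE; adjusted p = 0.18).

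Utrn encodes utrophin, which can take dystrophin's place between actin and dystroglycan, and lies at chr10:12382187-12869888. Its level was 133, 112 and 108 CPM in the uninduced libraries and 73.0, 69.4 and 69.9 CPM in the induced ones. The groups did not overlap, and uninduced replicate 1 stood above the other 2. Its mean of 118 ± 13.5 CPM fell to 70.7 ± 1.94 CPM (SD, n = 3), or by 0.74 ± 0.07 (SE) on the log2 scale (edgeR adjusted p = 1.49e-08). Among tested genes, 20.0% had a lower log2 fold change than Utrn. Utrn and Dmd thus did not share a direction in CPM, although Dmd had few counts in these cells.

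Dag1 encodes dystroglycan, which is cut into the laminin-binding α subunit and the membrane-spanning β subunit, and lies at chr9:108204861-108263977. It had the highest level of the 8 genes, with 309, 301 and 286 CPM in the uninduced and 264, 259 and 263 CPM in the induced libraries. Every induced library lay below every uninduced one, by a small margin. The mean went from 299 ± 11.6 to 262 ± 2.74 CPM (SD, n = 3), a fall of 1.14-fold (log2 fold change -0.19 ± 0.04 SE; edgeR adjusted p = 1.68e-04). A lower log2 fold change was found in 42.0% of tested genes, so that Dag1 sat near the middle of the whole distribution. When the fold change was tested against a minimum of 1.5-fold, Dag1 was not called (edgeR glmTreat adjusted p = 1). That test called 5 of the 7 genes lower, and 19.4% of all tested genes lower and 23.4% higher.

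The sarcoglycans are membrane glycoproteins that stabilise the link between dystrophin and dystroglycan. Sgcb, for β-sarcoglycan, lies at chr5:73632749-73647737 and was the most abundant of the 3 followed here. It had 75.3, 77.8 and 78.8 CPM in the uninduced libraries and 42.9, 45.3 and 43.3 CPM in the induced ones. The libraries of each group lay close together and far from the other group. Sgcb fell 1.76-fold, from 77.3 ± 1.81 to 43.8 ± 1.29 CPM (SD, n = 3; log2 fold change -0.82 ± 0.05 SE; edgeR adjusted p = 2.1e-13).

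Sgca encodes α-sarcoglycan, the sarcoglycan of striated muscle, and lies at chr11:94962777-94976327. Its level was 6.14, 6.63 and 6.69 CPM in the uninduced and 2.22, 3.43 and 2.81 CPM in the induced libraries. The induced libraries, with only 39 to 53 counts each, did not reach the uninduced ones. They were also spread more widely, and the source of that spread was not tested. Sgca fell 2.31-fold, from 6.48 ± 0.304 to 2.82 ± 0.604 CPM (SD, n = 3; log2 fold change -1.21 ± 0.15 SE; edgeR adjusted p = 7.35e-08).

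Sgcd encodes δ-sarcoglycan and lies at chr11:46971077-47989451, over about 1018 kb. It was the least abundant of the tested genes per base of exon, with 6.70, 5.66 and 4.39 CPM in the uninduced and 3.19, 4.01 and 3.39 CPM in the induced libraries. The groups came close, as uninduced replicate 3 (4.39) stood just above induced replicate 2 (4.01). The mean fell 1.59-fold, from 5.59 ± 1.16 to 3.53 ± 0.429 CPM (SD, n = 3; log2 fold change -0.67 ± 0.16 SE; edgeR adjusted p = 6.78e-04). Against a minimum of 1.5-fold, Sgcd was not called (edgeR glmTreat adjusted p = 0.252).

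Sspn encodes sarcospan, a small tetraspan membrane protein that binds the sarcoglycans, and lies at chr6:145931873-145965225. Its level was 16.0, 16.5 and 16.7 CPM in the uninduced and 5.13, 4.40 and 4.82 CPM in the induced libraries. Within each group the libraries were nearly level, and the groups were far apart. Sspn fell 3.41-fold, from 16.4 ± 0.390 to 4.78 ± 0.366 CPM (SD, n = 3; log2 fold change -1.77 ± 0.10 SE; edgeR adjusted p = 4.8e-14). Only 3.12% of tested genes had a lower log2 fold change. An antisense gene, Sspnos, shared 69 exon bases with Sspn, 1.38% of its exon length, and reads of the pair cannot be told apart there if strand was not used in counting.

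Dtna encodes α-dystrobrevin, a relative of dystrophin on the inner face of the membrane that recruits the syntrophins, and lies at chr18:23310006-23659719. It had 20.3, 20.0 and 20.4 CPM in the uninduced libraries and 8.78, 10.7 and 9.59 CPM in the induced ones. The uninduced libraries were nearly level, and all induced libraries lay well below them. Dtna fell 2.10-fold, from 20.2 ± 0.221 to 9.68 ± 0.954 CPM (SD, n = 3; log2 fold change -1.07 ± 0.08 SE; edgeR adjusted p = 3.26e-11). A provisional antisense gene shared 90 exon bases with Dtna, 0.532% of its exon length.

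**Figure D2:**
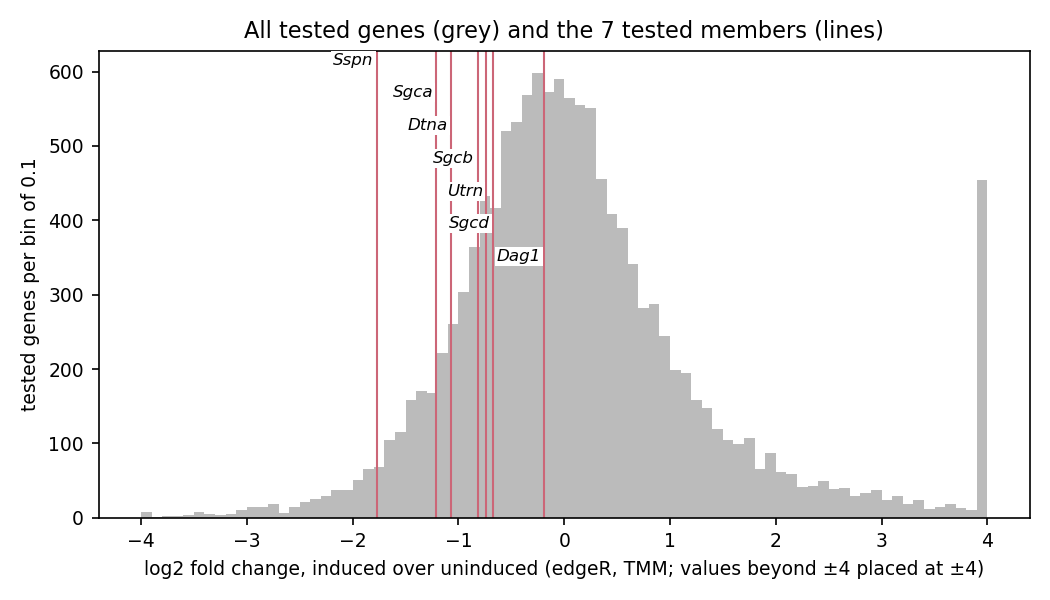
Histogram of log2 fold changes of the 12969 tested genes (grey, in bins of 0.1, with values beyond ±4 placed at ±4), with a line for each of the 7 tested genes of the complex. Dag1 (-0.19) lies near the middle and Sspn (-1.77) in the lower tail.

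Per kilobase of exon, the order of the 8 genes was the same in both groups. In uninduced cells Dag1 led with 47.0 ± 1.82 CPM per kb (SD, n = 3), followed by Sgcb with 19.1 ± 0.448 and Utrn with 6.90 ± 0.787. Sgca (3.74 ± 0.175), Sspn (3.28 ± 0.0781), Dtna (1.20 ± 0.0130) and Sgcd (0.677 ± 0.140) came next, and Dmd was last with 0.00712 ± 0.00222. The ranges of neighbours in this order did not overlap in either group. Sgca and Sspn were the closest pair in uninduced cells, at 3.54 to 3.85 and 3.19 to 3.35 CPM per kb. In induced cells they stood farther apart, at 1.28 to 1.98 and 0.881 to 1.03 CPM per kb. Dag1 in induced cells was at 41.2 ± 0.431, Sgcb at 10.8 ± 0.319 and Dmd at 0.0242 ± 0.00713 CPM per kb (SD, n = 3). The exon lengths were those of GENCODE vM21 with all exons of a gene merged, which need not be the models used for counting.

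The share of each gene relative to dystroglycan was compared within libraries, since a ratio of counts of a pair of genes does not depend on how libraries are scaled. Comparisons with Dag1 were chosen after the counts of Dmd were found too low for ratios: 5 of 6 libraries had 10 or fewer Dmd counts, so the ratios of Utrn and of Dag1 to Dmd were left out. Dag1 fell least of the tested genes, so the direction of every ratio to it was fixed in advance. These ratios restate the fold changes free of scaling, and their p-values add no support. For each Sspn count there were more Dag1 counts in induced cells, the log2 ratio of Sspn to Dag1 going from -4.19 ± 0.0892 to -5.78 ± 0.0964 (SD, n = 3). This was a difference of -1.59 ± 0.08 (SE), and the groups did not overlap. The difference was -1.03 ± 0.20 for Sgca, -0.88 ± 0.10 for Dtna, -0.63 ± 0.06 for Sgcb and -0.54 ± 0.07 for Utrn (SE). None of these overlapped between groups, and each had p = 0.1 in an exact two-sided permutation test over the 6 libraries, the smallest p that 3 against 3 allows (0.133 adjusted over 8 ratios). Sgcd relative to Dag1 differed by -0.46 ± 0.18 (SE), its groups overlapped, and the exact permutation p was 0.2 (0.229 adjusted).

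Among the sarcoglycans, the ratio of Sgca to Sgcb differed by -0.40 ± 0.16 on the log2 scale (SE; exact permutation p = 0.1, 0.133 adjusted), with no overlap between groups. Sgcd to Sgcb differed by 0.17 ± 0.21 (SE; exact permutation p = 0.5, also 0.5 adjusted), and its groups overlapped. That difference was below the SD of the uninduced libraries (0.339) and above that of the induced ones (0.129). Without uninduced replicate 3, which had the lowest Sgcd count of the uninduced libraries, the difference was -0.0061. Differences relative to dystroglycan thus ranged from -0.46 for Sgcd to -1.59 for Sspn.

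**Figure D3:**
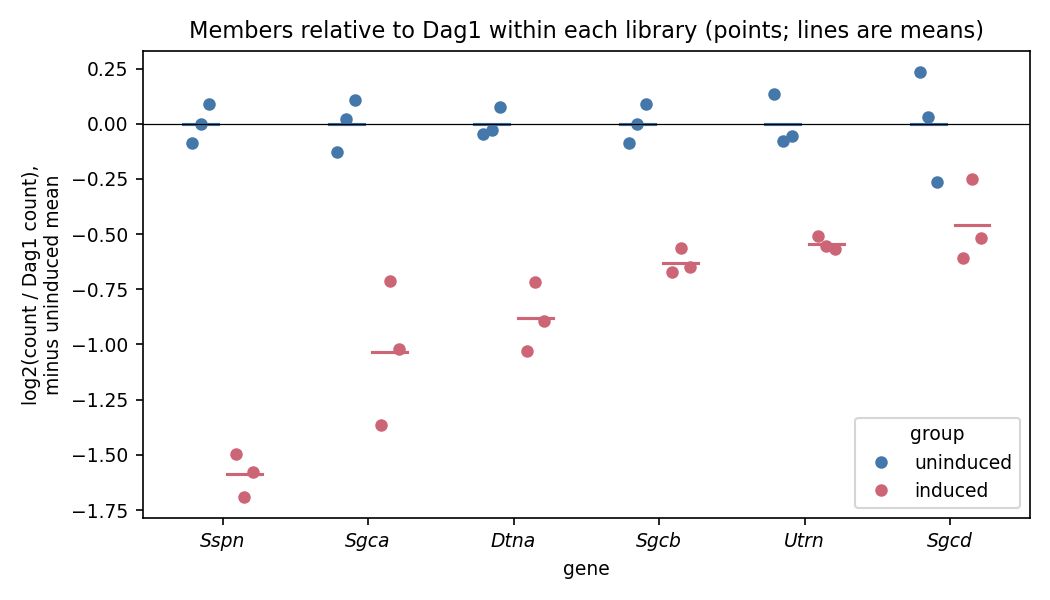
Log2 ratio of each gene's count to the Dag1 count in the same library, minus the mean of the uninduced libraries, for 3 uninduced (blue) and 3 induced (red) libraries, with group means as lines. The induced points lie below the uninduced ones for 5 genes and overlap them for Sgcd. Dag1 fell least of the tested genes, so the direction was fixed by its choice.

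The size of every fold change depended on how libraries were scaled, and the direction of the 7 tested genes did not. Scaled by library size alone, the median of all tested genes moved from -0.01 to -0.97, and 76.7% of tested genes were called lower and 15.2% higher. The 7 genes were again all lower, with a median of -1.78. Relative to the median of all genes, Dag1 was at -0.18 under both scalings and Sspn at -1.76 under both. Upper-quartile scaling put the median of all genes at -0.16 and that of the 7 genes at -0.96.

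**Figure D4:**
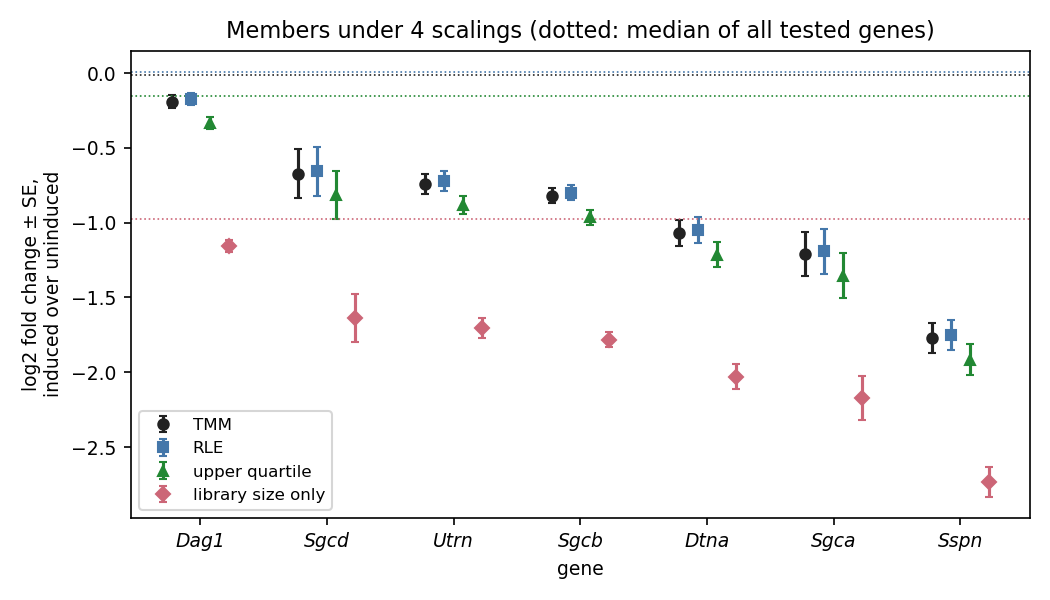
Log2 fold change ± SE of the 7 tested genes under 4 scalings (TMM, upper quartile, RLE and library size alone), with the median of all tested genes under each as a dotted line. All 7 genes stay below 0 and below the dotted line of their scaling, and library size alone moves genes and median down together.

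Of 12 other genes of the complex, 8 were tested, and 6 fell, 1 rose and 1 was not called. Their median log2 fold change was -0.75. Among all tested genes, 41.2% were called lower and 41.3% higher. Drp2, a dystrophin-related protein, fell from 12.5 ± 0.557 to 4.26 ± 0.730 CPM (SD, n = 3; log2 fold change -1.55 ± 0.12 SE). Sgce, for ε-sarcoglycan, fell by 1.47 on the log2 scale (SE 0.09). Sntb2, for the adaptor β2-syntrophin, rose from 32.1 ± 3.24 to 56.3 ± 3.01 CPM (SD, n = 3; log2 fold change 0.81 ± 0.07 SE). Scaled by library size alone its log2 fold change was -0.16, and it lay 0.82 above the median of all tested genes under both scalings. Sntb2 was the single gene of this list called higher, whereas Sntb1, for the related β1-syntrophin and named after its values were seen, had a log2 fold change of -0.78 and was called lower. Cav3, for the caveolin of muscle, was not called (-0.23 ± 0.12 SE; edgeR adjusted p = 0.0863). Sgcz, Sntg1, Sntg2 and Nos1 had at most 5 counts in any library and were not tested.

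Enzymes that build the laminin-binding sugar of α-dystroglycan numbered 18, of which 17 were tested. In this list 9 fell, 4 rose and 4 were not called, with a median of -0.31. The shares over all tested genes were 41.2% lower and 41.3% higher. Pomt1, which adds the first mannose, fell from 16.3 ± 0.548 to 7.24 ± 0.403 CPM (SD, n = 3; log2 fold change -1.17 ± 0.09 SE). Tmem5, now named Rxylt1, which adds xylose, had a log2 fold change of 0.85 ± 0.07 (SE) under TMM and of -0.11 when scaled by library size alone, and lay 0.86 above the median of all tested genes under both. Dpm1, part of the enzyme that makes the mannose donor, had 0.93 ± 0.26 (SE) and -0.03 in the same order, and lay 0.94 above the median under both. Its values rest on only 22 to 32 counts per library, or 0.845 CPM uninduced and 1.62 CPM induced on average.

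Extracellular ligands of dystroglycan and other basement membrane genes were tested for all 18 listed. In this list 12 fell, 5 rose and 1 was not called, with a median of -0.47. Across all tested genes, 41.2% were called lower and 41.3% higher. Col6a3, for a chain of collagen VI, fell from 489 ± 33.6 to 111 ± 6.13 CPM (SD, n = 3; log2 fold change -2.14 ± 0.05 SE), and Col6a1, for another, fell by 1.49 (SE 0.06). Lama4 and Lama1, for laminin α chains, rose from low levels. Lama4 went from 2.46 ± 0.0293 to 9.89 ± 1.21 CPM (SD, n = 3; log2 fold change 2.00 ± 0.13 SE) and Lama1 from 0.937 ± 0.0583 to 3.16 ± 0.254 CPM (SD, n = 3; 1.75 ± 0.20 SE). Both stayed above 0 when scaled by library size alone, at 1.04 and 0.79. Lama2, for the laminin chain of muscle basement membrane and named after its values were seen, was at 88.4 CPM in uninduced and 96.4 CPM in induced libraries on average (log2 fold change 0.12 ± 0.05 SE; edgeR adjusted p = 0.0263). It is 1 of the 5 called higher, but its groups overlapped and the call was lost in 9 of 14 alternatives, among them DESeq2 (adjusted p = 0.0865) and the fits without uninduced replicate 2 (0.0875) or 3 (0.143) or without induced replicate 1 (0.111) or 2 (0.0705). Under upper-quartile scaling its log2 fold change was -0.02, and scaled by library size alone it was -0.84.

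Other genes of sarcolemma attachment and repair comprised 18, all tested, of which 13 fell, 2 rose and 3 were not called, with a median of -0.55. Beside this, 41.2% of all tested genes were called lower and 41.3% higher. Dysf, for the repair protein dysferlin, fell by 1.41 on the log2 scale (SE 0.08), from 26.9 ± 0.874 to 10.1 ± 0.900 CPM (SD, n = 3). Myof, for its relative myoferlin, fell by 1.40 (SE 0.05). Anxa1, for a calcium-dependent membrane-binding annexin, rose from 606 ± 11.2 to 1333 ± 39.4 CPM (SD, n = 3; log2 fold change 1.14 ± 0.04 SE) and had a value of 0.17 when scaled by library size alone, lying 1.15 above the median of all tested genes under both. Anxa5, another annexin, had 0.24 ± 0.04 (SE) under TMM and -0.72 when scaled by library size alone, and lay 0.25 above the median under both. Itga7, for the α chain of the laminin receptor integrin α7β1 that works alongside the complex, fell by 1.21 (SE 0.04) and was named after its values were seen.

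**Figure D5:**
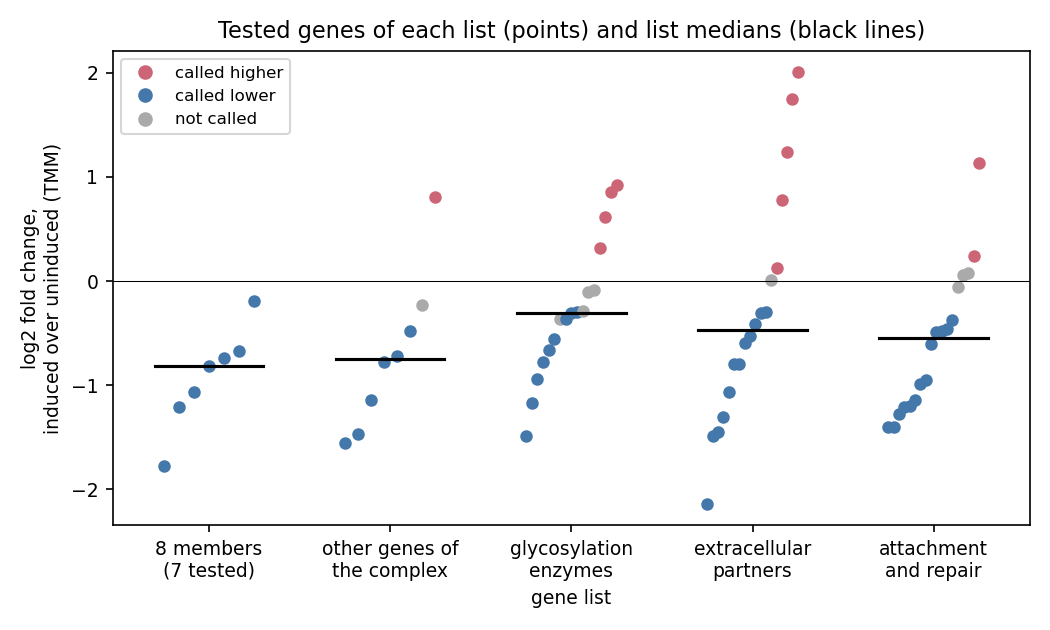
Log2 fold change (TMM) of the tested genes of the complex and of 4 related gene lists, coloured by call (higher red, lower blue, not called grey), with list medians as black lines. Medians run from -0.82 for the complex to -0.31 for the glycosylation enzymes, and scaling by library size alone moves genes down together with the median of all tested genes (from -0.01 to -0.97), so that some shown as higher then lie below 0.

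Markers of the cells themselves moved beside these genes, and their part in the results was not tested. For comparison, 41.2% of all tested genes were called lower and 41.3% higher. Of 6 myoblast markers, 4 were tested and all 4 fell, with a median log2 fold change of -1.75. Their summed level was 1454 to 1459 CPM in uninduced libraries and 761 to 790 CPM in induced ones. Most of that sum was Des, with means of 1042 CPM uninduced and 689 CPM induced (log2 fold change -0.60). The log2 fold changes of Cdh15, Myod1 and Myf5 were -2.28, -2.26 and -1.23. Myod1, the lineage regulator, was detected in every library, with 5401 to 5844 counts uninduced and 562 to 664 counts induced, whereas Pax7, of satellite cells, had at most 4 counts. Of 9 myotube markers, 7 fell, 1 rose and 1 was not called, with a median of -0.32 and a summed level of 691 to 719 CPM against 470 to 530 CPM. The median of the 7 tested genes of the complex, -0.82, lay between those of the myoblast and myotube markers. Fibroblast markers summed to 12.9 to 16.0 CPM uninduced and 50.6 to 51.2 CPM induced, nearly all from Pdgfra (log2 fold change 1.91 ± 0.07 SE), the 1 of 2 tested markers called higher, while Tcf21 had 0 counts in all libraries and Thy1 and Lum had at most 9. Schwann cell and neuron markers summed to 57.1 to 61.7 CPM uninduced and 97.7 to 106 CPM induced, mostly from Tubb3, with Sox10 at 0 in all libraries. Tubb3 was called higher, with a log2 fold change of 0.75 ± 0.05 (SE), and was at -0.21 when scaled by library size alone, lying 0.76 above the median of all tested genes under both. Of 4 macrophage markers, 1 was tested and not called, and their sum lay between 0.808 and 1.48 CPM in all libraries.

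Genes whose pattern over the 6 libraries was most like that of Utrn were ranked by the root-mean-square difference of centred log2 CPM, among 12238 genes. Chd3 was closest, with a difference of 0.0235, followed by Sh3pxd2a with 0.0311 and Rnf225 with 0.0316. Their log2 fold changes were -0.74 ± 0.07, -0.72 ± 0.05 and -0.77 ± 0.18 (SE). The measure rests on 6 libraries in 2 groups. Dmd was not ranked, having too few counts.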

How the data were processed

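Polyadenylated RNA was made into TruSeq libraries, per the labels' protocols. The submitters' processing notes list CASAVA, Bowtie2 2.2.3, TopHat2 2.0.12 and the mm10 build. The deposited table holds raw read counts, 1 row a gene. As to the counting program, strand setting and annotation release, these were not given in the sources used here. Groups follow the treatment label. In R 4.3.3, genes were filtered with filterByExpr, scaled with TMM and tested with edgeR 4.0.16 (robust glmQLFit, then glmQLFTest, two-sided, Benjamini-Hochberg over 12969 genes). Alternatives used other scalings, no filter, DESeq2 1.42.0, limma-voom (limma 3.58.1), glmTreat, a replicate block and each library left out. The genes of the complex and the lists were chosen with earlier results of these data known. From each list, up to 2 largest rises and falls with a mean of at least 1 CPM were named, and the results of some listed genes are not reported here. Of the gene identifiers, 23968 of 24028 matched RefSeq GRCm38.p6, which is the mm10 assembly. RefSeq also gave the sequences.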

Additional observations from a re-analysis of the deposited data

How the results depend on the processing

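The 7 tested genes kept their direction under all 14 alternatives of the fit. All 7 were called lower in 13 of these, and 5 with glmTreat against 1.5-fold, which called 19.4% of all tested genes lower and 23.4% higher. Dmd, tested only where the filter kept it, made 1 gene called higher with no low-count filter (adjusted p = 0.0029), with DESeq2 (0.0216) and without uninduced replicate 2 (0.00957) or 3 (0.00193), so that this count ran from 0 to 1 over the libraries left out. Its ratio of summed counts was 1.75 when scaled by library size alone, an alternative chosen after seeing the data, as were all comparisons with Dag1. The difference in the ratio of Sgcd to Sgcb turned to -0.0061 without uninduced replicate 3 and ran up to 0.33 without uninduced replicate 1.

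With glmTreat against 1.5-fold, 3 other genes of the complex, 4 glycosylation enzymes, 7 extracellular genes and 8 attachment genes were called lower. The same test called 1 other gene of the complex, 1 glycosylation enzyme, 4 extracellular genes and 1 attachment gene higher. Of all tested genes it called 19.4% lower and 23.4% higher. Scaling by library size alone called 76.7% of tested genes lower and 15.2% higher. In the lists, 8 other genes of the complex, 15 glycosylation enzymes, 15 extracellular genes and 17 attachment genes were then called lower. Called higher were 0 other genes of the complex, 0 glycosylation enzymes, 2 extracellular genes and 1 attachment gene. With no low-count filter, 2 other genes of the complex were called higher, against 33.2% of all genes. Deviations of libraries with the same replicate number correlated at 0.0604, 0.0166 and 0.0335, each library best with its own number, and the labels give no shared dish or day, so the numbers were not taken as pairs. With a replicate block, 7 genes of the complex were called lower and 0 higher, and 5402 of all genes lower and 5411 higher, and the difference in the ratio of Sgcd to Sgcb stayed at 0.17. Depth limits Dmd, with 4 to 13 counts per library, and to a lesser degree Sgca and Sgcd in induced cells and Dpm1 of the lists in all libraries.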
